A study of Mus musculus with 3 samples.

Results

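The ephrins, Eph receptors, semaphorins, plexins and neuropilins are families of contact and guidance molecules, and their 53 genes were taken by symbol from a table of 23421 mouse genes. They comprised 8 ephrins, 14 Eph receptors, 20 semaphorins, 9 plexins and 2 neuropilins. The table holds 1 RNA-seq library each of wild-type, tw18/+ and tw18/tw18 embryos at embryonic day 6.5. All 3 came from matings of tw18/+ mice of the strain 129/SvEv, and tw18 is a deletion on chromosome 17 that removes *Ppp2r1a*, the gene of a scaffold subunit of the phosphatase PP2A, together with many other genes. The labels name the tissue as epiblast, and the study describes it as the embryo proper, which is epiblast with its surrounding visceral endoderm. How many embryos went into a library is not given in the sources used here. Each genotype has 1 library, so no difference has a replicate check and no p-value is given. The paper proposes that non-inbred backgrounds, differing between embryos, might explain the variable mutant phenotype. Whether the libraries differed in background was not tested.

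Ephrins are ligands that stay attached to the cell surface, the A class by a lipid anchor and the B class by a transmembrane segment, and Eph receptors are the receptor tyrosine kinases that bind them on a neighboring cell. The signal runs into both cells and is known for keeping cell populations apart, as at tissue boundaries and between arteries and veins. Semaphorins are secreted or membrane-bound cues read by plexins, and most secreted semaphorins need a neuropilin as co-receptor, a protein that also binds vascular endothelial growth factors (VEGF). These cues steer growing axons, migrating cells and vessel sprouts.

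The values are FPKM, which scales the fragments of a gene by transcript length and library size, so levels can be compared between genes. A member is called different between libraries when the higher FPKM of the pair is at least 1 and the values differ at least 2-fold, without a pseudocount. Intervals in brackets are 95% counting intervals of the log2 ratio, from fragment numbers estimated with the annotated transcript length, and they do not cover the spread between embryos. The spacing of low FPKM values put the depth of wild type at about 14000000 fragments, that of tw18/+ at 19800000 and that of tw18/tw18 at 19600000. *Ppp2r1a* stood at 146 in wild type, 81.7 in tw18/+ and 12.8 in tw18/tw18, which is the order of the labels. It was not 0 in the last of these, so RNA assigned to the deleted gene was present in the library labelled tw18/tw18, and its source was not tested. In a bulk sample, fewer cells of a type and less RNA per cell cannot be told apart.

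Genes of the labelled tissue were present in all 3 libraries, since each of 10 epiblast genes and 12 visceral endoderm genes had an FPKM of at least 1. The summed FPKM of the epiblast list was 2042 in wild type, 2174 in tw18/+ and 1247 in tw18/tw18, and that of the visceral endoderm list was 922, 906 and 1191. Several lists of other cell types had their highest sums in tw18/tw18, with 14.9, 14.7 and 47.8 for 8 genes of extra-embryonic ectoderm, 44.1, 29.6 and 93.1 for 10 of endothelium, and 55.7, 79.1 and 238 for 8 of smooth muscle and pericytes. Of 10 genes of decidual stroma, *Prl8a2* was highest in wild type (FPKM 1504, 155 and 377), and the other 9 summed to 92.0, 74.7 and 373.5. The defining genes of endothelium were above 0 in each library. The part that these tissues had in the values below was not tested.

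Promoter sequences are shown for the members with the largest calls between tw18/tw18 and wild type, *Sema7a* and *Plxnd1* among the higher genes and *Sema6c* among the lower ones. Each is the 250 bases before a RefSeq start on GRCm38.p6, 5′ to 3′ on the strand of the gene, and lies in no annotated exon. Capitals mark the GC box GGGCGG or its reverse complement CCGCCC.
Sema7a, chr9:57939862-57940111, plus strand: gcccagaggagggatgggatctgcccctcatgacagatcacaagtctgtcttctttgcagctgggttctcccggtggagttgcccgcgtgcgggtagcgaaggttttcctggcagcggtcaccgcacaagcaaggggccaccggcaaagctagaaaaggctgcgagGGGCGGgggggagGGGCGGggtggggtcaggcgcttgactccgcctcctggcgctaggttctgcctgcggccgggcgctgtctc
Plxnd1, chr6:115995006-115995255, minus strand: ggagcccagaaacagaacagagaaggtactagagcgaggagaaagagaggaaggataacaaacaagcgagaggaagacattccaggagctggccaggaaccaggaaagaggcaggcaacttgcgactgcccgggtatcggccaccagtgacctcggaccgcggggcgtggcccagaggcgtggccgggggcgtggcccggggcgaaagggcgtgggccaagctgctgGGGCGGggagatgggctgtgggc
Sema6c, chr3:95160170-95160419, plus strand: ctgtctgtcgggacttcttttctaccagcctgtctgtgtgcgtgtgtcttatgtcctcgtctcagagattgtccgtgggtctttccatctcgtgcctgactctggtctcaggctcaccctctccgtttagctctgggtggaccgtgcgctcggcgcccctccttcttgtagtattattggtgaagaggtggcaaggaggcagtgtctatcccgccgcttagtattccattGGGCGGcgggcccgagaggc

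These windows hold 2 GC boxes in *Sema7a*, 1 in *Plxnd1* and 1 in *Sema6c*. A second RefSeq start of *Sema6c* has the window chr3:95164089-95164338, which holds 0 GC boxes and 0 CpG dinucleotides. RefSeq gave windows for 47 of the 53 members, 61 windows in all. A GC box on either strand lay in 75.4% of the members' windows, against 32.7% of all 32841 promoter windows of this length. The median window of the members held 16 CpG dinucleotides, against 6 over all windows. The TATA box TATAAA or TTTATA was in 1.64% of the members' windows and in 12.4% of all windows, and the E-box CAGGTG or CACCTG, the letters known to be bound by Snail and Zeb repressors, in 13.1% and 17.2%. Each GC box contains a CpG, so those counts overlap, and a match describes the sequence and is not a bound site.

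In wild type 41 members had an FPKM of at least 1, and 38 did so in all 3 libraries. *Sema6a*, a transmembrane semaphorin that binds plexin-A receptors, was the most abundant at 39.5 in wild type, 39.1 in tw18/+ and 31.2 in tw18/tw18. *Epha1*, an Eph receptor of epithelia, followed with 32.3, 28.0 and 18.2. The plexins *Plxnb2* (26.8, 24.7 and 28.3), *Plxna1* (25.1, 28.9 and 25.2) and *Plxnb1* (19.7, 15.2 and 15.4) came next. The most abundant members were thus of modest level, with *Sema6a* at rank 1938 of all genes in wild type.

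**Figure D1:**
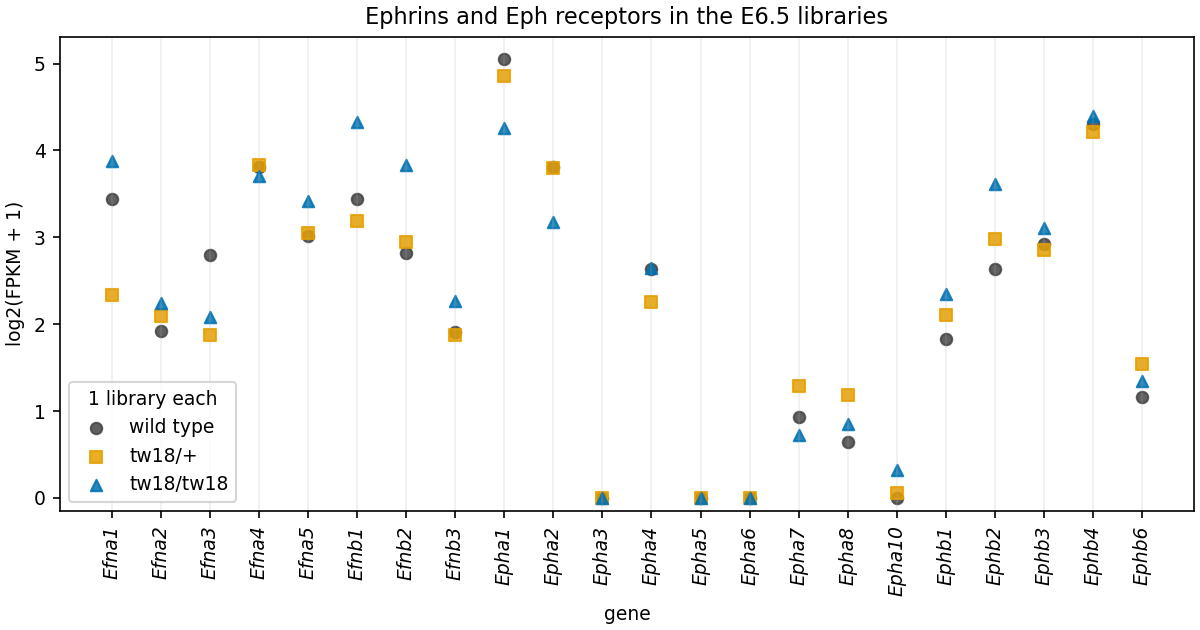
Level of each ephrin and Eph receptor as log2(FPKM + 1), with 1 point for each library (circle wild type, square tw18/+, triangle tw18/tw18). *Efnb1*, *Efnb2* and *Ephb2* have their triangles above the other points, *Epha1* and *Epha2* below them, and *Epha3*, *Epha5* and *Epha6* are listed at 0 in all 3 libraries.

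In tw18/tw18 against wild type, 41 members reached the FPKM of 1 and 10 were called, 8 of them higher (19.5%) and 2 lower (4.88%). Of 12917 genes in the table that reached this level, 15.1% were higher and 6.94% lower. In either direction 24.4% of the members were called against 22% of these genes, a share near the background. The differences of all tested members, called or not, leaned to one side. The median difference of log2(FPKM + 1) was 0.18 over the 41 members, with 28 above 0 (68.3%). Over all genes it was -0.007, with 49.6% above 0. Of the 43 members with an FPKM of at least 1 in any library, 26 (60.5%) had their highest value in tw18/tw18, against 41.0% of 13118 genes. Rescaling the libraries to equal FPKM sums would raise each log2 ratio of tw18/tw18 against wild type by 0.21 and give 10 members higher and 1 lower. Of all genes, 19.3% would then be higher and 4.89% lower. A pseudocount of 1 would leave 5 members called, 4 higher and 1 lower, against 13.6% of all genes, and would end the calls of *Ephb2*, *Sema3c*, *Sema4g*, *Sema5b* and *Sema3e*.

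All ephrin-B genes had their highest level in tw18/tw18, and *Efnb2* passed 2-fold against wild type. *Efnb2*, the ligand that marks arteries, was at an FPKM of 6.07 in wild type, 6.72 in tw18/+ and 13.3 in tw18/tw18, a log2 ratio of 1.13 (0.96 to 1.29) against wild type. *Efnb1*, on the X chromosome and mutated in craniofrontonasal syndrome, had 9.85, 8.09 and 19.1, a log2 ratio of 0.96 (0.80 to 1.12) that was just under the 2-fold call. Both were at similar levels in wild type and tw18/+ and about 2-fold above these in tw18/tw18. *Efnb3* was lower in level, with 2.75, 2.68 and 3.81, and a log2 ratio of 0.47 (0.15 to 0.80). Summed over the class, ephrin-B FPKM was 18.7, 17.5 and 36.2.

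The ephrin-A ligands differed in which library was highest. *Efna1*, which was found as a gene induced by inflammatory signals in endothelium, was at an FPKM of 9.86 in wild type, 4.04 in tw18/+ and 13.7 in tw18/tw18, so tw18/+ was the library that stood apart, 2.44-fold below wild type. *Efna3* had 5.97, 2.67 and 3.24 and was highest in wild type, 2.24-fold above tw18/+. *Efna4* differed little, with 13.1, 13.3 and 12.1. *Efna5*, which with *Efna2* patterns the map of retinal axons in the midbrain, had 7.06, 7.31 and 9.66, and *Efna2* had 2.79, 3.29 and 3.74. Summed ephrin-A FPKM was 38.7, 30.6 and 42.4, and the ephrin-B sum was 0.482 of it in wild type and 0.854 of it in tw18/tw18.

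Among the receptors, the 2 most abundant EphA genes were lower in tw18/tw18. *Epha1* had a log2 ratio of -0.83 (-0.94 to -0.72) against wild type and -0.62 against tw18/+, with the FPKM given above. *Epha2*, which is expressed in the primitive streak, stood at 13.0, 12.9 and 8.01, with log2 ratios of -0.70 (-0.85 to -0.54) and -0.68. Neither reached 2-fold. Of 8 primitive streak genes, 6 were called lower in tw18/tw18 against wild type, where 6.94% of all genes were. Of these, *T* and *Mesp1* were listed at 0 there, which can also be a failed estimate. The streak sum was lower in tw18/+ too, with 208, 147.5 and 92.0, and the epiblast sum was 2042, 2174 and 1247. The part of these tissues in the level of *Epha2* was not tested. Exons of *Epha1* overlap those of *Zyx* on the opposite strand, which stood at 82.5, 75.2 and 94.9. The library protocol keeps strand, but whether the fragments were assigned by strand is not given in the sources used here, so the level of *Epha1* is uncertain. *Epha4*, which binds ephrins of both classes, was alike in wild type and tw18/tw18 (5.23 and 5.27) and lower in tw18/+ (3.79). *Epha7* (0.914, 1.44 and 0.658) and *Epha8* (0.568, 1.28 and 0.797) were near an FPKM of 1 and highest in tw18/+. *Epha10* had 0, 0.0420 and 0.251, while *Epha3*, *Epha5* and *Epha6*, receptors best known from the nervous system, were listed at 0 in all 3 libraries.

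Among the EphB receptors the highest library was tw18/tw18 for all except *Ephb6*. *Ephb2*, a receptor for ephrin-B ligands, was at an FPKM of 5.20 in wild type, 6.89 in tw18/+ and 11.2 in tw18/tw18, a log2 ratio of 1.11 (0.99 to 1.23), or 0.98 with a pseudocount of 1. *Ephb1* had 2.57, 3.30 and 4.08, a log2 ratio of 0.67 (0.40 to 0.94). Both were lowest in wild type, with tw18/+ in between. *Ephb4*, the venous partner of ephrin-B2, was the most abundant EphB gene and differed little, with 18.7, 17.5 and 20.0. *Ephb3* had 6.57, 6.24 and 7.60, and *Ephb6*, whose kinase domain is inactive, 1.23, 1.90 and 1.54. The EphB sum was 0.659 of the EphA sum in wild type, 0.756 in tw18/+ and 1.34 in tw18/tw18. *Epha1*, whose level is uncertain, made up 32.3 of the EphA sum of 52.0 in wild type and 18.2 of 33.2 in tw18/tw18, so these ratios depend on it.

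**Figure D2:**
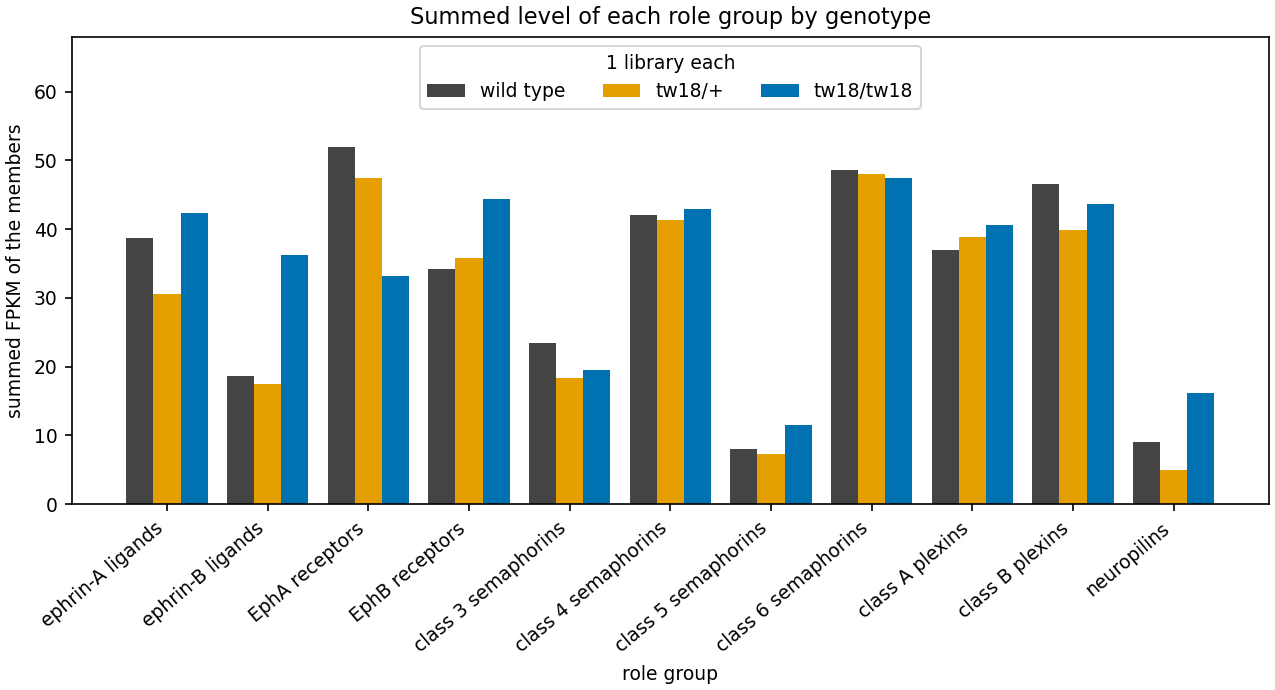
Summed FPKM of the members of each role group, with 1 bar for each library and no error bars, since each genotype has 1 library. The ephrin-B, EphB and neuropilin bars are highest in tw18/tw18, the EphA bar is lowest there, and the class 4 and class 6 semaphorin bars are nearly level; groups of 1 gene are left out.

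The secreted class 3 semaphorins differed from one another. *Sema3e*, which binds plexin-D1 without a neuropilin, was at an FPKM of 11.2 in wild type, 5.58 in tw18/+ and 5.62 in tw18/tw18, so both libraries that carry tw18 were about 2-fold below wild type. Its log2 ratio was -1.001 (-1.14 to -0.86) in tw18/tw18 and -1.01 (-1.15 to -0.88) in tw18/+, and with equal FPKM sums the former became -0.79 and with a pseudocount of 1 -0.89, no longer a call. *Sema3c*, needed for the outflow tract of the heart, had 2.09, 1.69 and 4.23, a log2 ratio of 1.02 (0.76 to 1.29) in tw18/tw18, or 0.76 with a pseudocount of 1. *Sema3g* had 1.34, 0.141 and 1.43, from about 84, 12 and 126 fragments, and was 9.49-fold lower in tw18/+ than in wild type. This was the largest difference of a called member against wild type, and it set tw18/+ apart from both other libraries.

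*Sema3f*, a ligand of neuropilin-2, had an FPKM of 7.17, 9.60 and 6.58, and *Sema3b* had 1.46, 0.782 and 0.790. *Sema3d* stayed under 0.2 in all 3 libraries. *Sema3a*, a repellent of axons that acts through neuropilin-1, was listed at 0 in wild type, with 0.476 in tw18/+ and 0.698 in tw18/tw18, from about 55 and 80 fragments. At the depth of wild type, 3 fragments of *Sema3a* would give 0.0364, and an exact 0 in this table can also be a failed estimate, so no fold is given.

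**Figure D3:**
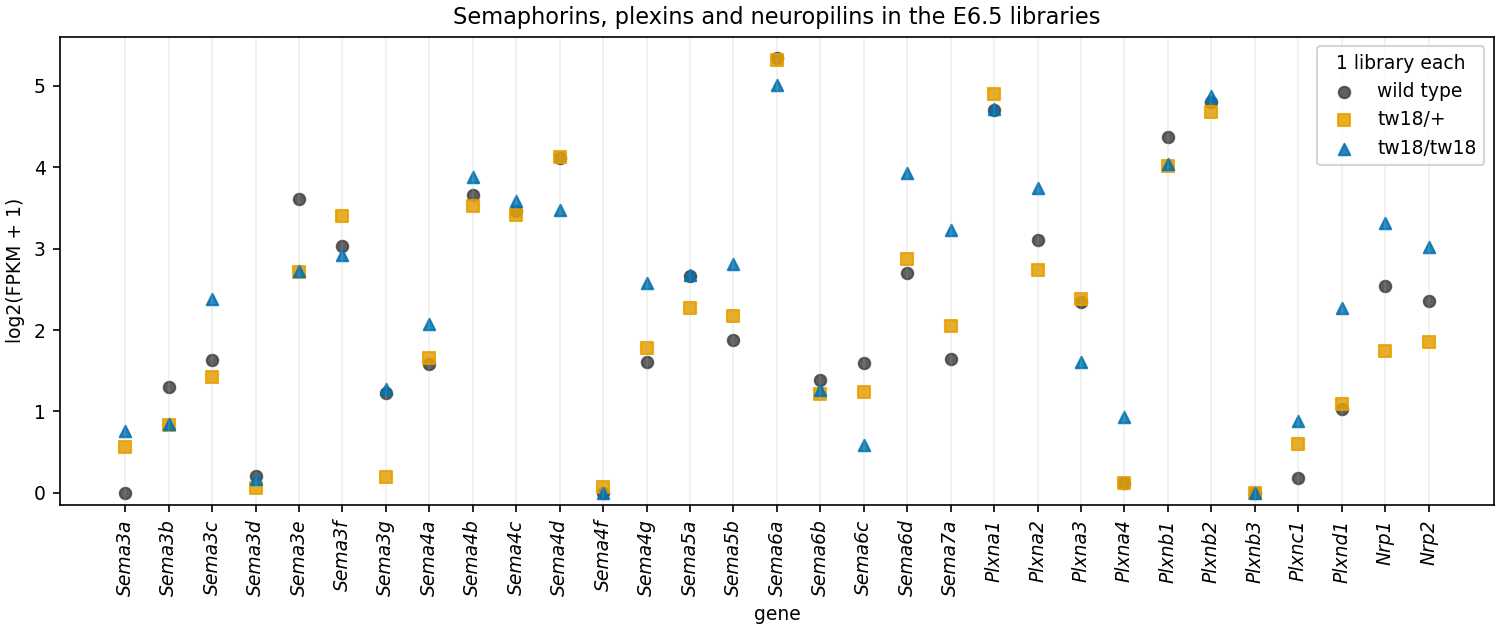
Level of each semaphorin, plexin and neuropilin as log2(FPKM + 1), with 1 point for each library (circle wild type, square tw18/+, triangle tw18/tw18). The triangles of *Sema7a*, *Sema6d*, *Plxnd1*, *Nrp1* and *Nrp2* stand above the other points, that of *Sema6c* stands below them, and the square of *Sema3g* stands far below its other points.

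Of the membrane-bound semaphorins, *Sema7a* had the largest increase in tw18/tw18. This gene encodes the semaphorin with a lipid anchor, known to act through integrins and plexin-C1, and its FPKM was 2.12 in wild type, 3.15 in tw18/+ and 8.39 in tw18/tw18. These levels rest on about 97, 202 and 533 fragments. Against wild type the log2 ratio of tw18/tw18 was 1.98 (1.66 to 2.30), and against tw18/+ it was 1.41 (1.18 to 1.65). *Plxnc1*, the plexin that binds it, had the same order but was under an FPKM of 1 in each library, with 0.134, 0.515 and 0.844.

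The class 6 semaphorins held both a called increase and the largest called decrease in tw18/tw18. *Sema6d*, a ligand of plexin-A1, was at an FPKM of 5.51 in wild type, 6.30 in tw18/+ and 14.3 in tw18/tw18, a log2 ratio of 1.38 (1.23 to 1.53). *Sema6c* had 2.02, 1.36 and 0.503, which rest on about 110, 104 and 38 fragments. Against wild type tw18/tw18 was 4.02-fold lower, a log2 ratio of -2.01 (-2.59 to -1.47). These genes moved apart, while *Sema6a* had a log2 ratio of -0.34 (-0.40 to -0.28) and *Sema6b* was at 1.61, 1.32 and 1.41. The class sum was nearly level, at 48.6, 48.1 and 47.4.

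The class 4 semaphorins were likewise level as a sum, with 42.0, 41.4 and 43.0. *Sema4g* had an FPKM of 2.04, 2.43 and 4.97, with a log2 ratio of 1.29 (1.004 to 1.59), or 0.98 with a pseudocount of 1, and was the one member of the class called in any pair. *Sema4d*, a ligand of plexin-B1, was lower in tw18/tw18, with 16.3, 16.5 and 10.1 and a log2 ratio of -0.69 (-0.83 to -0.56). *Sema4b* (11.6, 10.5 and 13.7) and *Sema4c* (10.04, 9.67 and 11.0) differed little, *Sema4a* had 1.999, 2.16 and 3.22, and *Sema4f* was at or under 0.0510. In class 5, *Sema5b* had 2.69, 3.51 and 6.03, a log2 ratio of 1.17 (0.91 to 1.43), or 0.93 with a pseudocount of 1, and *Sema5a* had 5.33, 3.82 and 5.42, lowest in tw18/+.

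*Plxnd1* was the plexin called in tw18/tw18 against wild type. It encodes a receptor of endothelial cells for semaphorin-3E, and its FPKM was 1.05 in wild type, 1.13 in tw18/+ and 3.82 in tw18/tw18. These levels rest on about 101, 153 and 513 fragments. The log2 ratio of tw18/+ against wild type was 0.10 (-0.27 to 0.48), while tw18/tw18 had a log2 ratio of 1.87 (1.55 to 2.19) against wild type and 1.76 (1.496 to 2.03) against tw18/+. In tw18/tw18, where the receptor was highest, its ligand *Sema3e* was at 5.62, below the 11.2 of wild type. *Sema3e* was as low in tw18/+, at 5.58, where *Plxnd1* was near its wild-type level. A relation between the levels of receptor and ligand was not tested. The endothelial list was also highest in tw18/tw18, with 6 of 9 measured genes called higher and none lower against wild type. Over all genes tested, 15.1% were higher and 6.94% lower. Other lists also had many genes called higher. These were 7 of 7 of extra-embryonic ectoderm, 8 of 10 of decidual stroma and 5 of 7 of smooth muscle and pericytes. Decidual stroma and smooth muscle each had 1 gene lower. The epiblast, primitive streak and visceral endoderm lists had none called higher. The part of these tissues in the level of *Plxnd1* was not tested.

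The abundant plexins, which bind class 4 and class 6 semaphorins, differed less. *Plxna1* and *Plxnb2* had log2 ratios of 0.007 (-0.06 to 0.07) and 0.08 (0.001 to 0.15) in tw18/tw18, and *Plxnb1* of -0.35 (-0.43 to -0.27). *Plxna2* had an FPKM of 7.63, 5.67 and 12.4, with a log2 ratio of 0.70 (0.605 to 0.80) against wild type and 1.13 (1.03 to 1.23) against tw18/+. *Plxna3*, on the X chromosome, was lower in tw18/tw18, with 4.07, 4.21 and 2.06 and a log2 ratio of -0.98 (-1.21 to -0.75). *Plxna4* was at 0.0863 and 0.0824 in wild type and tw18/+ and at 0.911 in tw18/tw18, from about 16, 21 and 229 fragments. *Plxnb3* was listed at 0 throughout.

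Both neuropilins were lowest in tw18/+ and highest in tw18/tw18. *Nrp1*, co-receptor for semaphorin-3A and VEGF-A, was at an FPKM of 4.84 in wild type, 2.35 in tw18/+ and 8.97 in tw18/tw18. Its log2 ratio was -1.04 (-1.34 to -0.75) for tw18/+ and 0.89 (0.67 to 1.11) for tw18/tw18 against wild type. *Nrp2*, found on veins and lymphatic vessels, had 4.14, 2.61 and 7.15, with log2 ratios of -0.66 (-0.88 to -0.44) and 0.79 (0.61 to 0.97). The order tw18/+, wild type, tw18/tw18 was also that of the sum of the endothelial list, but not of each gene in it. Of 8 endothelial genes measured in tw18/+ against wild type, 2 were called higher (*Tek* and *Emcn*) and 3 lower. Over all genes in this pair, 4.7% were higher and 5.02% lower. The decidual sum had this order only without *Prl8a2*, and with it the sums were 1596, 230 and 751. The order was not particular to endothelium. Leukocyte genes also summed to it (24.1, 15.6 and 45.0), as did those of trophoblast giant cells (133, 89.4 and 247). So did the sums for extra-embryonic ectoderm (14.9, 14.7 and 47.8) and for visceral endoderm (922, 906 and 1191). The epiblast, primitive streak, smooth muscle, erythroid and neural sums had other orders. The order of the neuropilins was found in 15 of the 43 members (34.9%), among them *Efna1*, *Sema3c*, *Sema3g* and *Plxna2*, and in 19.4% of all genes.

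**Figure D4:**
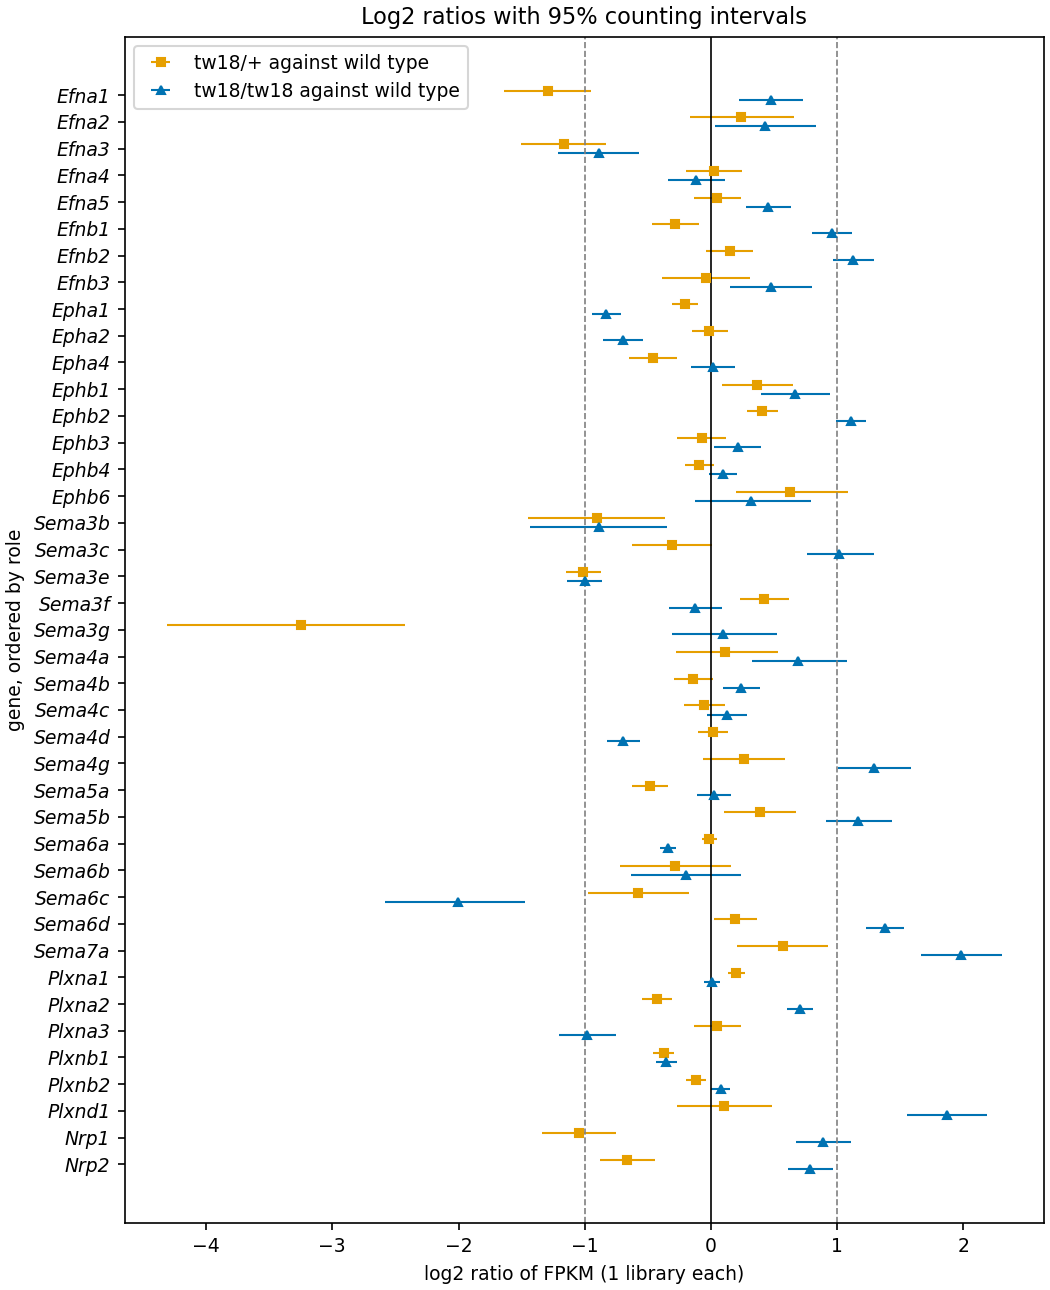
Log2 ratio of FPKM against wild type for the 41 members with an FPKM of at least 1 in wild type or tw18/tw18, for tw18/+ (squares) and tw18/tw18 (triangles), with bars for the 95% counting interval and dashed lines at a 2-fold difference. *Sema7a* and *Plxnd1* lie farthest to the right in tw18/tw18 and *Sema6c* farthest to the left, while *Sema3g* lies farthest to the left in tw18/+.

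In tw18/+ against wild type, 43 members reached the FPKM of 1 and 6 were called, 1 higher (2.33%) and 5 lower (11.6%). Of 12426 genes that reached this level, 4.7% were higher and 5.02% lower. In either direction these were 14% of the members and 9.72% of the genes. The higher gene was *Epha8*, and the lower ones were *Efna1*, *Efna3*, *Nrp1*, *Sema3e* and *Sema3g*. With a pseudocount of 1, only *Efna1* and *Sema3g* stayed called. The median difference of log2(FPKM + 1) was -0.03 over the members and 0.003 over all genes.

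Against tw18/+, tw18/tw18 had 11 of 42 members higher (26.2%) and 3 lower (7.14%), where 12846 genes gave 14.9% and 5.65%. In either direction 33.3% of the members were called, against 20.5% of the genes. With equal FPKM sums, 13 members were higher and 1 lower, while the shares over all genes became 19.8% higher and 3.67% lower. *Sema7a*, *Sema6d*, *Sema4g*, *Sema3c* and *Plxnd1* were called higher in tw18/tw18 against each of the other libraries, and *Sema6c* was called lower against both. The others called higher were *Efna1*, *Efnb1*, *Nrp1*, *Nrp2*, *Plxna2* and *Sema3g*, and the others called lower were *Epha7* and *Plxna3*. *Sema3g* had the largest ratio, 10.2-fold above tw18/+, and it was at a similar FPKM in tw18/tw18 (1.43) and wild type (1.34). The comparisons share libraries, so their calls are not independent of one another.

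Proteins that act with these families were followed in lists of other genes. Of 20 partners and effectors of Eph signaling, 19 reached an FPKM of 1 in wild type or tw18/tw18 and 1 was called higher, *Ngef*, known to act downstream of EphA4, at 1.05, 1.30 and 3.49. The median difference of log2(FPKM + 1) of this list was -0.05. Of 20 partners and effectors of semaphorins and plexins, 18 were measured, 2 were called higher and 2 lower. The lower ones were *Dpysl5* (21.0, 20.0 and 6.98) and *Crmp1* (23.7, 28.8 and 9.64), and their relative *Dpysl3* was higher (5.19, 5.99 and 10.9). All 3 are of the family of collapsin response mediators that act downstream of semaphorin-3A. Of the same family, *Dpysl2* was not called (16.4, 15.3 and 11.4) and *Dpysl4* stayed under an FPKM of 1. *Farp2* was listed at 0 in wild type, with 0.716 in tw18/+ and 2.03 in tw18/tw18. The median of this second list was 0.009. Among all genes that reached an FPKM of 1 in this comparison, 15.1% were called higher and 6.94% lower.

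Genes of the VEGF system share the neuropilins. All 8 were measured in tw18/tw18 against wild type, and 4 were called higher and 1 lower, with a median difference of 0.78. Over all genes tested, 15.1% were higher and 6.94% lower, with a median of -0.007, and the lists were not tested against one another or against all genes. *Vegfa* had an FPKM of 11.8, 11.0 and 28.2, *Pgf* 0.629, 0.499 and 2.43, and the receptor *Kdr* 1.43, 0.590 and 3.93. *Figf*, the older symbol of *Vegfd*, had 0.0386, 1.22 and 1.25. *Vegfb* was the lower gene, with 32.1, 23.9 and 15.3. *Kdr* is also 1 of the 10 endothelial genes above, and like the neuropilins it was lowest in tw18/+ and highest in tw18/tw18.

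*Sema6b* and *Efna5* are the members on chromosome 17, 35.2 and 41.6 Mb distal to *Ppp2r1a* on GRCm38, and neither was called in any pair.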

How the data were processed

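RNA from 1 library each of wild-type, tw18/+ and tw18/tw18 embryos was measured. Per the labels, the authors made total RNA libraries with random hexamers, mapped the reads to mm10 with TopHat2 and Bowtie 1.0.0, and calculated the deposited FPKM values with Cuffdiff from Cufflinks 2.2.1. The gene annotation, the strand setting and the library normalization are not given in the sources used here. FPKM is relative to each library, so an abundant gene lowers the others. *Lars2* made up 2.52% of the FPKM sum in wild type, 2.13% in tw18/+ and was listed at 0 in tw18/tw18, which can also be a failed estimate.

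The values were analyzed with Python 3.11.15, numpy 2.4.6, pandas 2.3.3, scipy 1.17.1 and matplotlib 3.10.9. A gene was called at an FPKM of at least 1 in the higher library and a log2 ratio of at least 1, with no test. Values of 0 were included if the paired library reached 1. All members were named, and of the other pathway genes up to 4 called genes a list. *Vegfb*, *Dpysl2* and *Dpysl4* were named beyond this rule, *Vegfb* after its value was seen. Depth was estimated from the step of low FPKM values in genes with 1 transcript in GENCODE M21, with 50 bp subtracted from the length, and 84.4% to 85.7% of those values were whole fragments within a tolerance of 0.2. Fragment numbers and the exact binomial intervals derived from them are approximate and cover counting error only. At most 2.60% of a member's 50 bp words occur in another gene. Promoters came from RefSeq for GRCm38.p6. The calls and the depth estimate were tested on simulated data. The members and lists were chosen with earlier results of these data known.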

Additional observations from a re-analysis of the deposited data

How the results depend on the processing

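Of 10 members called in tw18/tw18 against wild type, a pseudocount of 1 left 5, a minimum FPKM of 5 left 6 and a log2 threshold of 2 left 1. The members tested were then 41, 28 and 41. The shares called over all genes were 13.6%, 13.1% and 8.04%, in place of 22%. Against tw18/+, 14 members were called, and the same settings gave 9, 7 and 1. The members tested were 42, 27 and 42, and the all-gene shares 12.1%, 12.4% and 6.27%, in place of 20.5%. In tw18/+ against wild type, 6 were called, and the same settings gave 2, 3 and 1, while no filter gave 11. The members tested were 43, 24, 43 and 49. The all-gene shares were 4.43%, 2.75%, 3.4% and 25.7%, in place of 9.72%. The other alternatives moved none of the counts of called members by more than 1.5 times. Scaling to equal FPKM sums gave 10 higher and 1 lower in tw18/tw18 against wild type in place of 8 and 2, and 13 and 1 against tw18/+ in place of 11 and 3. Over all genes it gave 19.3% higher and 4.89% lower against wild type, and 19.8% and 3.67% against tw18/+. Scaling to the median log2 ratio gave 9 and 1 against wild type, and equal sums without *Lars2* gave 10 and 1. All genes were then 15.9% higher and 6.39% lower, and 18.4% and 5.18%. The share of higher calls against tw18/+ was 12 of 13 with equal sums without *Lars2* and 9 of 9 with a pseudocount of 1. All genes were 19% higher and 3.81% lower in the former, and 9.18% and 2.92% in the latter.

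The median log2 difference of the members in tw18/tw18 against wild type, 0.18, was 0.21 with a pseudocount of 0.1, 0.19 without a filter, 0.10 at an FPKM of at least 5, 0.24 against tw18/+, 0.23 centered on the median, 0.32 with equal sums and 0.29 with equal sums without *Lars2*. The medians of all genes were -0.008, 0.04, -0.07, 0.005, 0.04, 0.18 and 0.15 in the same order. Of the 10 called log2 ratios, 5 stayed at or past 1 in size with a pseudocount of 1, 6 against tw18/+ and 9 with equal sums. *Sema3e* changed its sign against tw18/+, to 0.01. No paired analysis was possible because each genotype has 1 library, and for the same reason no replicate could be left out.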

Other observations

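Of 22 netrin, Slit and RGM cues and receptors, 10 reached an FPKM of 1 in wild type or tw18/tw18, and 3 were called higher and none lower in tw18/tw18, with a median difference of log2(FPKM + 1) of 0.46. *Ntn1*, which encodes netrin-1, stood at an FPKM of 4.63 in wild type, 4.53 in tw18/+ and 9.81 in tw18/tw18. The Slit receptors *Robo2* (0.675, 0.664 and 2.50) and *Robo4* (0.550, 0.942 and 1.81), the latter an endothelial receptor, were also higher. No p-value is possible for these counts, and over all genes 15.1% were called higher.

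The remaining marker lists varied in direction. Of 8 primitive streak genes, 6 were called lower and none higher in tw18/tw18 against wild type, and their FPKM sum was 208, 147.5 and 92.0. The sums were 133, 89.4 and 247 for 6 genes of trophoblast giant cells, 24.1, 15.6 and 45.0 for 8 of leukocytes, and 12.7, 13.6 and 9.65 for 6 of neural tissue. Of 5 neural genes measured in tw18/tw18 against wild type, 3 were called lower (*Tubb3*, *Snap25* and *Elavl3*) and 1 higher (*Neurod1*). Of 5 erythroid genes in the table, 4 were measured, with 3 called higher and 1 lower, and near-identical globin copies make these values uncertain. Over all genes in this comparison, 15.1% were called higher and 6.94% lower.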
